A study of Oryza sativa with 4 samples.

Results

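The broad regions of OsNF-YB1-GFP enrichment on the short arms of rice chromosomes 4 and 10 were described here, arms that are known from cytology to be rich in heterochromatin. A broad region was counted as a member when its midpoint lay on chromosome 4 below 7.7 Mb or on chromosome 10 below 6.2 Mb, in the coordinates of the rice genome build MSU7.0. These bounds leave out the 2 Mb next to each centromere. By this rule 454 of the 12272 broad regions of transgenic line 16 (3.70%) and 301 of the 6810 broad regions of line 22 (4.42%) were members, 755 of 19082 in all. The regions on the long arms of the same chromosomes, above 11.7 Mb on chromosome 4 and above 10.2 Mb on chromosome 10, served as the comparison, with 1164 regions in line 16 and 619 in line 22. The lists hold positions and enrichment and no chromatin mark, so that the heterochromatic state of the arms was not measured in these samples and the members are called by their position.

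Caryopsis coats were the tissue of the ChIP, carried out with an antibody against GFP. This preparation is the outer part of the developing grain, without the starchy interior and the embryo, and was taken at 8 to 12 days after fertilization. Lines 16 and 22 of the japonica background ZH11 both carried OsNF-YB1 fused to GFP behind a ubiquitin promoter, whereas the native gene is expressed in the aleurone layer, and a ChIP from plants without the fusion was not analysed here. Each line had 1 ChIP library and 1 input library (chromatin without immunoprecipitation), for which the DNA of 4 ChIP experiments was combined, and peaks were called in each line against its own input, with 21973755 ChIP and 20143149 input tags kept in line 16 and 21297446 and 21994210 in line 22. The headers of the lists name the lines, which the labels of the 4 libraries do not.

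OsNF-YB1 is the NF-YB subunit of the NF-Y transcription factor family. NF-YB and NF-YC pair through histone-fold domains, which resemble those of histones H2B and H2A. In the canonical complex a further subunit, NF-YA, reads the CCAAT box. Heterochromatin is compact chromatin that holds many repeated sequences and transposable elements and few transcribed genes. In rice the short arms of chromosomes 4 and 10 are stained as heterochromatin over most of their length, whereas the long arms are largely euchromatic.

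The members were weak and short, like the regions elsewhere. In line 16 their mean fold enrichment, the ChIP signal over the local background averaged over the region, ranged from 1.65 to 2.92 with a median of 2.17, and their lengths ranged from 146 to 1955 bp with a median of 361 bp. In line 22 the mean fold enrichment ranged from 1.87 to 3.13 with a median of 2.11, and the lengths from 146 to 2400 bp with a median of 383 bp. The middle 50% of the members, from the lower to the upper quartile, lay between 240 and 554 bp in line 16 and between 242 and 564 bp in line 22. Together the members covered 1.45% of the 13.9 Mb of short arm in line 16 and 0.939% in line 22. The shortest members sat at the fragment length of 146 bp that was set for the peak calling.

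The density of broad regions was higher on the short arms than on the long arms in line 22, and no such difference was detected in line 16. In line 16 the short arms held 32.7 regions per Mb (95% exact interval 29.7 to 35.8) and the long arms 31.7 per Mb (29.9 to 33.6), a ratio of 1.03 (0.923 to 1.15, exact binomial test, two-sided, adjusted *P* = 0.642). In line 22 the short arms held 21.7 regions per Mb (19.3 to 24.2) and the long arms 16.9 per Mb (15.5 to 18.2), a ratio of 1.29 (1.12 to 1.48, exact binomial test, adjusted *P* = 0.00221). Between the 2 lists of regions the ratio differed by more than counting error (two-sided Fisher's exact test of the 4 counts, *P* = 0.0147, not adjusted), which compares 1 ChIP library with 1 other and does not show how far lines differ in general. *P*-values from comparisons of arms were adjusted by the Benjamini-Hochberg method over 10 tests, 5 measures in each line. All of these *P*-values treat regions as independent and cover counting error only, and the 2 lines are the only biological replicates.

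In line 22 the ratio of the densities was 1.36 on chromosome 4 and 1.15 on chromosome 10, and in line 16 it was 0.983 and 1.04. The difference between the chromosomes did not pass a likelihood ratio test in either line. On the short arm of chromosome 4, line 16 had 224 regions or 29.1 per Mb, against 29.6 per Mb on the long arm. Line 22 had 159 regions or 20.6 per Mb there, against 15.2 per Mb on the long arm. On the short arm of chromosome 10, line 16 had 230 regions or 37.1 per Mb, against 35.5 per Mb on the long arm, and line 22 had 142 regions or 22.9 per Mb, against 19.9 per Mb. With chromosome 10 alone the ratio of line 22 was 1.15 and no longer passed the test (exact binomial test, adjusted *P* = 0.5). Over all chromosomes the density was 32.9 per Mb in line 16 and 18.3 per Mb in line 22, so that both short arms of line 22 lay above the genome-wide density, and of its long arms only that of chromosome 4 lay below it. Single chromosomes taken whole held 28.5 to 35.2 regions per Mb in line 16, where the short arms together lay above 4 of the 12. In line 22 they held 16.5 to 20.9, and the short arms together, though not that of chromosome 4 by itself, lay above each of the 12. Set against the other 10 chromosomes, a comparison chosen after seeing the data, the density ratio of line 22 was 1.19 (1.05 to 1.33, exact binomial test, adjusted *P* = 0.022).

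**Figure D1:**
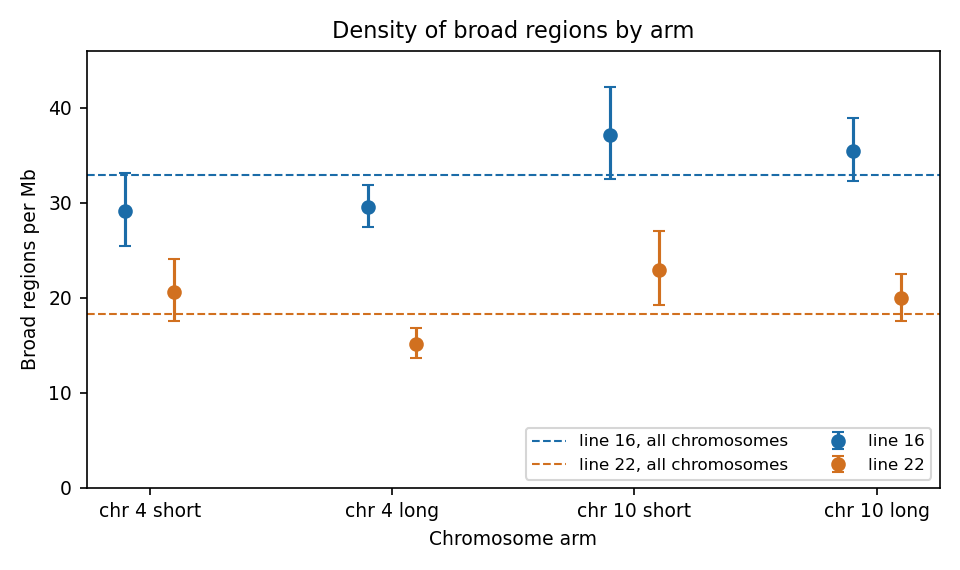
Broad regions per Mb on the short and long arms of chromosomes 4 and 10, with points for each line, bars for the 95% exact intervals of the counts and dashed lines for the density over all chromosomes. In line 22 the short arm of chromosome 4 lay at 20.6 per Mb and its long arm at 15.2 per Mb, while the arms of chromosome 4 in line 16 lay at 29.1 and 29.6 per Mb.

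Members were spread along both short arms, though 1 stretch of chromosome 4, described below, was longer than 500 kb and held none in either line. None of the 27 complete windows of 500 kb on the short arms was empty in either line. In line 16 the windows held 4 to 24 regions with a median of 17, and in line 22 they held 5 to 19 with a median of 10. On the long arms, 72 windows held 1 to 30 regions in line 16 with a median of 16, and 0 to 18 in line 22 with a median of 8, and 2 of these windows were empty in line 22. The counts of the lines rose and fell together across the 27 short-arm windows (Pearson's r = 0.50, Spearman's rho = 0.56) and across the 72 long-arm windows (r = 0.43, rho = 0.40). For chromosomes 4 and 10 by themselves, Pearson's r was 0.50 and 0.48 on the short arms and 0.51 and 0.16 on the long arms. The counts of the lines thus went together least on the long arm of chromosome 10. These coefficients describe windows, which share the genome sequence and the 2 pairs of libraries. The first 500 kb of chromosome 4 was dense in both lines, with 20 regions in line 16 and 19 in line 22, the most of any short-arm window in line 22. The third window of chromosome 4 held 4 regions in line 16 and 6 in line 22, the fewest of any short-arm window in line 16.

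**Figure D2:**
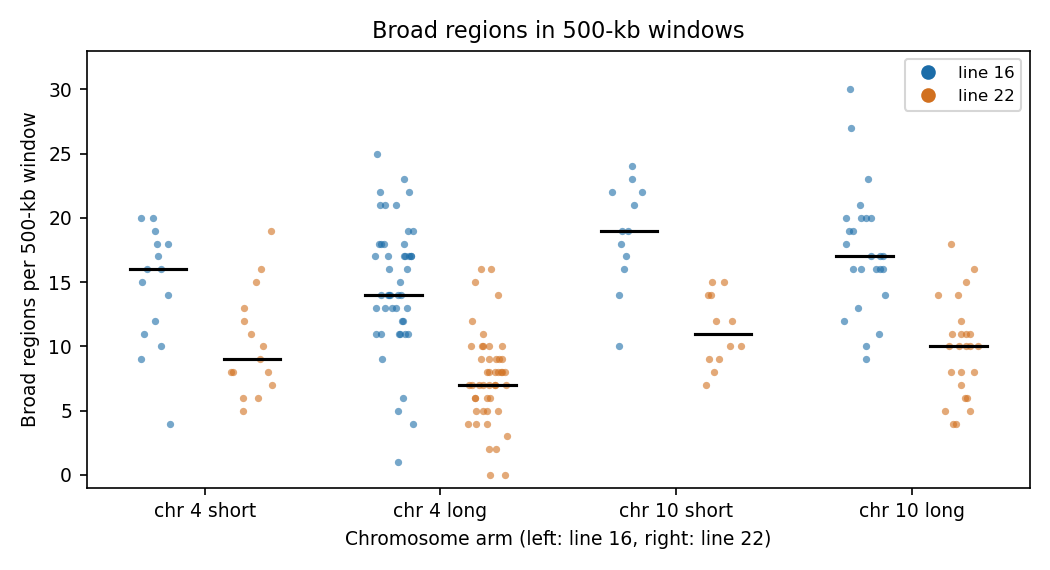
Broad regions in each complete 500-kb window of the short and long arms, with 1 point a window and a bar at the median, line 16 on the left and line 22 on the right of each arm. Short-arm windows held 4 to 24 regions in line 16 and 5 to 19 in line 22, and none was empty.

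Neighbouring members were usually far apart. The median distance from the end of a region to the start of the next was 18606 bp on the short arm of chromosome 4 and 16693 bp on that of chromosome 10 in line 16, and 24398 bp and 33610 bp in line 22. No members of a line were closer than 614 bp in line 16 or 633 bp in line 22. Distances of at most 1 kb made up 3 of 223 on chromosome 4 and 7 of 229 on chromosome 10 in line 16, and 2 of 158 and 2 of 141 in line 22. The longest stretch without a region on the short arms lay at the same place in both lines. It spanned 517264 bp in line 16, between the regions that ended at 1256413 and began at 1773678 on chromosome 4, and 609853 bp in line 22, between 1163889 and 1773743. The long arm of chromosome 4 held longer stretches, which also overlapped between the lines. They spanned 575830 bp in line 16, from 14818265 to 15394096, and 1648292 bp in line 22, from 14210047 to 15858340. The short-arm stretch was singled out after its values were seen. Whether it holds sequence to which reads can be aligned was not tested.

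The length of the members did not set them apart. Regions of at least 500 bp made up 144 of the 454 members of line 16 (31.7%, 95% Wilson interval 27.6 to 36.1%) and 339 of the 1164 long-arm regions (29.1%, 26.6 to 31.8%), where the share over all broad regions of the line was 32.0%. The difference was 2.59 percentage points (95% Newcombe interval −2.31 to 7.69, Fisher's exact test, two-sided, adjusted *P* = 0.435). In line 22 they made up 99 of 301 members (32.9%, 27.8 to 38.4%) and 194 of 619 long-arm regions (31.3%, 27.8 to 35.1%), against 30.9% of all regions of the line. The difference was 1.55 percentage points (−4.76 to 8.08, exact test, adjusted *P* = 0.651). An excess on the short arms of up to 7.69 points in line 16 or 8.08 points in line 22 lies within these intervals.

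The longest member of each line on each short arm had a fold enrichment between the lower and upper quartiles of the members of its line. On chromosome 4 the longest member of line 22 was chr4:5818430-5820829, of 2400 bp with a mean fold enrichment of 2.12, the fourth longest region of the whole list, at rank 4 of 6810. It held 1 narrow peak, a short peak called at a stricter threshold, with a fold enrichment of 2.58 at its summit. The longest member of line 16 on chromosome 4 was chr4:997554-999411, of 1858 bp with a fold enrichment of 2.13 and no narrow peak, at rank 22 of 12272 by length. Neither overlapped a broad region of the other line. On chromosome 10 the longest member of line 16 was chr10:2039582-2041536, of 1955 bp with a fold enrichment of 2.16, at rank 18 by length, which held 1 narrow peak with a fold enrichment of 2.76 and overlapped no region of line 22. The longest of line 22 was chr10:2454456-2455650, of 1195 bp with a fold enrichment of 2.04, at rank 103 by length. It had no narrow peak and overlapped a region of 685 bp in line 16.

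Narrow peaks had to pass a q-value of 0.05, whereas broad regions, which the paper describes as weaker and broader, were called at 0.1. In line 16, 97 of the 454 members overlapped a narrow peak of the line (21.4%, Wilson interval 17.8 to 25.4%), as did 203 of the 1164 long-arm regions (17.4%, 15.4 to 19.7%), and the share over all broad regions of the line was 18.9%. The difference of 3.93 percentage points did not pass the test (−0.273 to 8.43, adjusted *P* by Fisher's exact test = 0.125). In line 22, 54 of the 301 members overlapped a narrow peak (17.9%, 14.0 to 22.7%), against 72 of 619 long-arm regions (11.6%, 9.34 to 14.4%) and 12.1% of all broad regions of the line. This difference of 6.31 percentage points passed the test (1.51 to 11.6, adjusted *P* by Fisher's exact test = 0.0264).

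The share with a narrow peak on the short arm of chromosome 4 in line 22 was the one farthest above its long arm, with 31 of 159 members (19.5%) against 34 of 360 regions (9.44%). On chromosome 10 in that line it was 23 of 142 members (16.2%) against 38 of 259 (14.7%), and the difference of 1.53 percentage points did not pass the test by itself (adjusted *P* by Fisher's exact test = 0.795). In line 16 the shares were 21.4% against 16.4% on chromosome 4 and 21.3% against 19.1% on chromosome 10. Whether the comparison of arms differed between the chromosomes was tested for each of the 5 measures in each line with a likelihood ratio test, and 0 of the 10 tests passed after adjustment, the smallest unadjusted *P* being 0.0647, for this measure in line 22. The share of members with a narrow peak also lay above that of each of the 12 chromosomes taken whole, with 16.8 to 21.2% in line 16 and 9.22 to 15.3% in line 22. In line 22 it was 6.15 percentage points above that of the other 10 chromosomes together (2.14 to 11.0, adjusted *P* by Fisher's exact test = 0.022), and in line 16 by 2.46 points (−1.14 to 6.53, adjusted *P* = 0.399). Narrow peaks counted by themselves gave 7.05 per Mb on the short arms and 5.61 per Mb on the long arms in line 16. In line 22 these densities were 3.88 and 2.01 per Mb. Over all chromosomes there were 6.35 narrow peaks per Mb in line 16 and 2.24 in line 22, between the values of the arms. The densities of narrow peaks were not tested. Pileup divided by fold enrichment, which approximates the local background at the summit, had a median of 12.3 on the short and 12.6 on the long arms in line 16, and 13.2 and 13.0 in line 22.

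Members were shared between the lines more often than long-arm regions of the same chromosomes. Of the 454 members of line 16, 109 overlapped a broad region of line 22 by at least 1 bp (24.0%, Wilson interval 20.3 to 28.2%), against 175 of 1164 long-arm regions (15.0%, 13.1 to 17.2%) and 20.2% of all broad regions of the line. The difference was 8.97 percentage points (4.69 to 13.5, adjusted *P* by Fisher's exact test = 0.00032). Of the 301 members of line 22, 109 overlapped a region of line 16 (36.2%, 31.0 to 41.8%), against 176 of 619 (28.4%, 25.0 to 32.1%) and 36.5% of all broad regions of the line. The difference was 7.78 percentage points (1.39 to 14.3, adjusted *P* by Fisher's exact test = 0.037). The same overlaps enter the counts of both lines, which are therefore not independent of each other.

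These differences depended on the long arms of chromosomes 4 and 10 as the comparison. Set against the other 10 chromosomes, the share in line 16 was higher by 3.57 percentage points (−0.216 to 7.77, adjusted *P* by Fisher's exact test = 0.25), and the share in line 22 differed by −1.04 points (−6.41 to 4.67, same exact test, adjusted *P* = 0.798). Chromosome 4 as a whole had the lowest share in line 22 of the 12 chromosomes, at 30.9%. The regions of the other line also covered more of the short arms. Line 22 covered 0.939% of the short arms and 0.696% of the long arms, a ratio of 1.35, beside a ratio of 1.60 between the shared shares of line 16. Line 16 covered 1.45% and 1.32%, a ratio of 1.09, beside a ratio of 1.27 between the shared shares of line 22. The part of this coverage in the sharing was not tested.

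**Figure D3:**
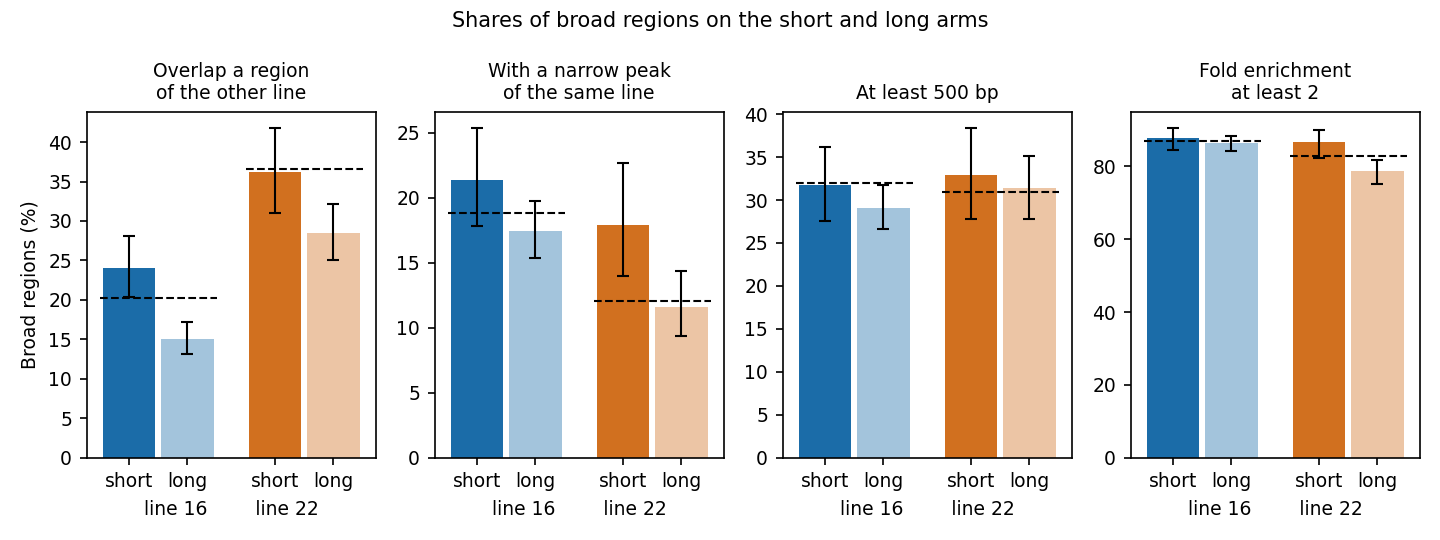
Shares of broad regions with 4 properties on the short arms (dark bars) and long arms (light bars) of chromosomes 4 and 10 in each line, with 95% Wilson intervals and dashed lines at the share over all broad regions of the line. The shared share was 24.0% on the short and 15.0% on the long arms in line 16, and 36.2% and 28.4% in line 22, and the shares of regions of at least 500 bp lay between 29.1 and 32.9%.

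Both short arms had the higher shared share in both lines. In line 16 the members on chromosome 4 were shared in 55 of 224 cases (24.6%, against 13.5% on the long arm) and those on chromosome 10 in 54 of 230 (23.5%, against 17.4%). In line 22 they were shared in 55 of 159 cases on chromosome 4 (34.6%, against 26.7%) and in 54 of 142 on chromosome 10 (38.0%, against 30.9%). By itself only chromosome 4 in line 16 passed the test among these 4 comparisons. The sharing difference of line 16 stayed past the threshold in 9 of 12 alternative settings and that of line 22 in 4 of 12.

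Long members and members with a narrow peak overlapped the other line most often, as a description. In line 16, 49 of the 144 members of at least 500 bp were shared (34.0%) and 60 of the 310 shorter ones (19.4%). In line 22 these were 43 of 99 (43.4%) and 66 of 202 (32.7%). Long-arm regions followed the same order by length, with 20.35% and 12.85% in line 16 and 33.51% and 26.12% in line 22. A longer region has more bases with which to overlap. Among members with a narrow peak, 33 of 97 were shared in line 16 (34.0%) and 24 of 54 in line 22 (44.4%), and among those without one 76 of 357 (21.3%) and 85 of 247 (34.4%). Most shared members thus had no narrow peak in their own line. The shared members had the same median fold enrichment as the members that were not shared, 2.17 in line 16 and 2.11 in line 22. Among regions without a narrow peak in their own line, whatever the partner had, the shared share was 21.3% on the short and 12.4% on the long arms in line 16 and 34.4% and 26.3% in line 22. Among regions with a narrow peak it was 34.0% and 27.6% in line 16. In line 22 it was 44.4% on the short and 44.4% on the long arms, so that no difference was seen there. The arms were not tested against each other for regions with a narrow peak.

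**Figure D4:**
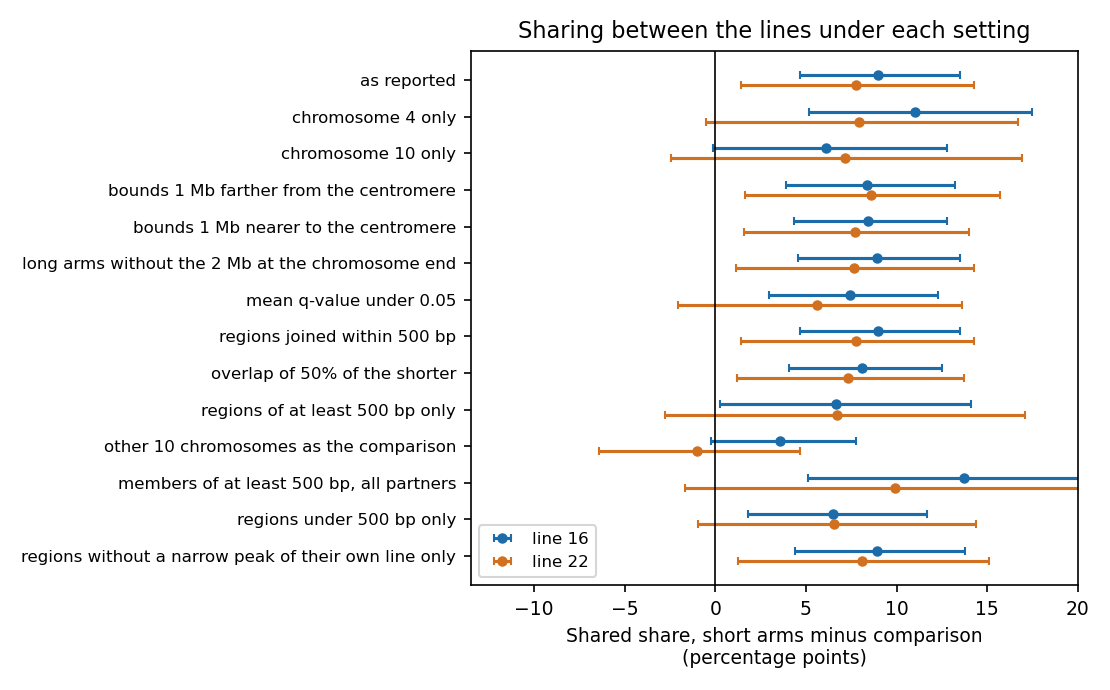
Difference in the shared share, short arms minus the comparison, in percentage points under each setting, with 95% Newcombe intervals, for lines 16 and 22. The difference was 8.97 points in line 16 and 7.78 in line 22 as reported, and 3.57 and −1.04 points with the other 10 chromosomes as the comparison.

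In line 22 a larger share of the members than of the long-arm regions had a mean fold enrichment of at least 2. The call held in 4 of 8 other settings. In line 16 the difference did not pass the test. Members with a mean fold enrichment of at least 2 numbered 261 of 301 in line 22 (86.7%, Wilson interval 82.4 to 90.1%), against 487 of 619 on the long arms (78.7%, 75.3 to 81.7%) and 83.0% of all its regions, a difference of 8.04 percentage points (2.77 to 12.8, adjusted *P* by Fisher's exact test = 0.0127). In line 16 they numbered 399 of 454 (87.9%, 84.6 to 90.6%), against 1006 of 1164 (86.4%, 84.3 to 88.3%) and 87.1% of all its regions, a difference of 1.46 points (−2.34 to 4.86, same exact test, adjusted *P* = 0.578). Against the other 10 chromosomes the difference of line 22 was 3.51 points (adjusted *P* by Fisher's exact test = 0.327), and among regions with a mean q-value under 0.05 it was 0.121 points (adjusted *P* by Fisher's exact test = 1). Whether the difference in this share differed between the lines was not tested. The medians were close together, 2.11 on the short and 2.10 on the long arms in line 22 and 2.17 and 2.13 in line 16. At a threshold of 2.5 in place of 2, 10 of 301 members and 10 of 619 long-arm regions passed in line 22, a difference of 1.71 points that did not pass the test (adjusted *P* by Fisher's exact test = 0.242).

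The 109 overlapping pairs on the short arms joined 1 region of each line, 55 on chromosome 4 and 54 on chromosome 10. The lines shared 14 to 731 bp in these pairs, with a median of 246 bp or 89.4% of the shorter region, and in 95 of the 109 pairs the overlap reached 50% of the shorter region. Only 6 pairs had a narrow peak in both lines, 27 had one in line 16 alone, 18 in line 22 alone, and 58 (53.2%) in neither. Of the 176 long-arm pairs, 15 had a narrow peak in both lines and 102 (58.0%) in neither. The fold enrichment was higher in line 16 in 61 of the 109 short-arm pairs. Across the 109 pairs the fold enrichments of the lines went together only weakly (Pearson's r = 0.31, Spearman's rho = 0.24), as did the lengths (rho = 0.11), and these values describe regions from 1 ChIP library per line.

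**Figure D5:**
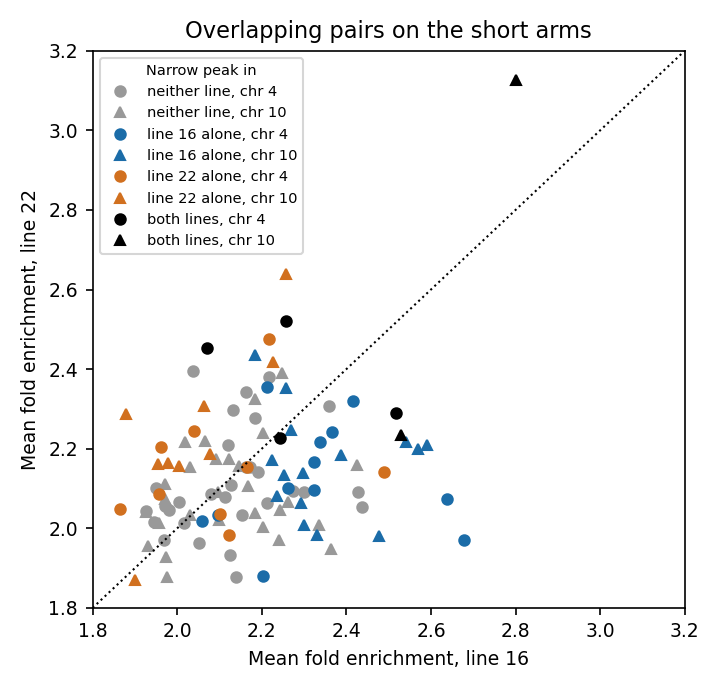
Mean fold enrichment of the 109 overlapping pairs on the short arms, line 16 on the x axis and line 22 on the y axis, with circles for chromosome 4, triangles for chromosome 10, colours for the lines in which a narrow peak was called and a dotted line of equal values. The pair at 2.80 in line 16 and 3.13 in line 22, on chromosome 10, stood apart from all others.

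The strongest shared site lay on the short arm of chromosome 10. In line 22 it was chr10:4609565-4609712, a region of 148 bp with a mean fold enrichment of 3.13, the second highest of the whole list, at rank 2 of 6810. In line 16 the site was chr10:4609462-4609705, of 244 bp with a fold enrichment of 2.80, at rank 84 of 12272. The regions shared 141 bp. A narrow peak was called in both lines, with a fold enrichment of 3.51 and a pileup of 37.6 tags at the summit in line 16 and with 3.83 and 35 tags in line 22. The 3.83 was the highest value of any narrow peak on the short arms in line 22. The next pairs on this arm by the lower of the fold enrichments were much weaker. One joined chr10:1108979-1109489 in line 16, with 2.26 and no narrow peak, to chr10:1108521-1109484 in line 22, with 2.64 and a narrow peak of 3.35. Another joined chr10:4558516-4559666 in line 16, of 1151 bp with 2.26 and a narrow peak of 2.15, to chr10:4558729-4558894 in line 22, with 2.35 and no narrow peak.

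On the short arm of chromosome 4 the strongest pairs were weaker than that site. The first joined chr4:7566504-7566809 in line 16, with 2.42 and a narrow peak of 2.69, to chr4:7566371-7566762 in line 22, with 2.32 and no narrow peak. The second joined chr4:3414841-3415262, with 2.36, to chr4:3414970-3415237, with 2.31, and had no narrow peak in either line. The third joined chr4:7349843-7350150, with 2.52 and a narrow peak of 3.14, to chr4:7350002-7350178, with 2.29 and a narrow peak of 2.59. It was therefore also 1 of the 6 pairs with a narrow peak in both lines.

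The remaining 4 pairs with a narrow peak in both lines had mean fold enrichments of 2.07 to 2.53. The site at chr10:1726598-1727083 in line 16 and chr10:1726577-1726813 in line 22 had 2.53 and 2.23. On chromosome 4, the site at chr4:375491-376371 and chr4:375496-375751 had 2.24 and 2.23, and the narrow peaks there reached 2.49 and 2.54. The site at chr4:4106752-4106911 and chr4:4106769-4107336 had 2.26 and 2.52, with narrow peaks of 2.39 and 3.09. The site at chr4:7053785-7054182 and chr4:7054001-7054148 had 2.07 and 2.45, with narrow peaks of 2.35 and 2.54. In these 6 pairs the pileup at the summit of the narrow peaks, scaled within each line, was 31 to 41.

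Apart from the site on chromosome 10, the members with the highest fold enrichment of their arm were found in 1 line. In line 16 they were chr4:2770848-2771057, with 2.92 at rank 43 of 12272 and a narrow peak of 3.90, and chr10:3727286-3727480, with 2.86 at rank 58 and a narrow peak of 2.83. In line 22 the highest on chromosome 4 was chr4:6879420-6879639, with 2.67 at rank 78 of 6810 and a narrow peak of 2.92. All 3 were 195 to 220 bp long, and none overlapped a broad region of the other line.

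The regions next to the bounds of the rule are given as a description. On chromosome 4 the last members inside the bound of the short arm were chr4:7587644-7588178 in line 16, with a fold enrichment of 2.12, and chr4:7683644-7683987 in line 22, with 2.21. The first regions outside were chr4:7810026-7810391, with 2.11, and chr4:8015484-8015833, with 2.22. On chromosome 10 the last members were chr10:6192673-6192980 in line 16, with 2.25, and chr10:6157615-6158108 in line 22, with 2.09, and the first outside were chr10:6254332-6254525, with 2.18, and chr10:6264244-6264854, with 2.03. On the long arms the first regions inside the bound were chr4:11744241-11744403, with 2.12, and chr10:10208320-10208654, with 1.94, in line 16, and chr4:11762144-11762442, with 2.19, and chr10:10210252-10210790, with 2.41, in line 22. The last before it were chr4:11689143-11689307, with 2.18, and chr10:10181107-10181511, with 2.27, in line 16, and chr4:11688413-11689307, with 2.04, and chr10:10099435-10100285, with 2.15, in line 22.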

How the data were processed

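Reads were mapped by the authors with Bowtie2 to the MSU7.0 genome, and peaks were called with MACS 2.0.10.20131216 in each line by itself. The deposited fold enrichment is a ratio of ChIP over the background that MACS estimated, at the summit of a narrow peak or as a mean over a broad region. Values of −log10 p and −log10 q were deposited from the same run. The deposited signal is the pileup, which counts the ChIP tags that overlap the summit once the libraries of a pair were scaled by the authors. In the broad lists this column was negative in all 12272 and 6810 regions and was not used. The sequencer is named as Hiseq2500 in the methods and as Genome Analyzer in the labels.

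Regions were assigned by midpoint, and the long arms were taken to end at the highest listed position. Overlaps, exact tests, Wilson and Newcombe intervals and likelihood ratio tests were computed in Python 3.11.15 with numpy 2.4.6, pandas 2.3.3, scipy 1.17.1 and statsmodels 0.14.6, and the functions were tested on simulated data. Intervals cover counting error only, since regions were treated as independent and each line had 1 ChIP library. PCR copies are also not independent molecules. For each short arm the named regions are the 3 overlapping pairs with the highest value of the lower fold enrichment, the strongest and the longest region of each line, every pair with narrow peaks in both lines up to 10, and the regions beside each bound. The members, lists and tests were chosen with earlier results of these data known. The sequence and genes of the regions were not analysed here, since no genome or annotation of MSU7.0 was used. Alternatives concerned the bounds, chromosomes, thresholds, q-values, overlap, joining and comparison.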

Additional observations from a re-analysis of the deposited data

How the results depend on the processing

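No paired analysis was possible because the numbers in the labels pair ChIP with input libraries, which the peak calling had already combined into 1 list per line. The density and the shares are given as the ratio or as the difference in percentage points, short arms against the comparison, and the cause of a change was not tested. With chromosome 4 alone, the density ratio of line 16 was 0.983, the length difference of line 22 was −0.0734, and the sharing difference of line 22 was 7.92 and lost its call. With chromosome 10 alone, in line 16 the length difference was −1.23, the difference in fold enrichment of at least 2 was −1.76 and the sharing difference was 6.12, which lost its call. In line 22 on chromosome 10, the density ratio of 1.15 and the differences in narrow peaks of 1.53, in sharing of 7.14 and in fold enrichment of 6.24 all lost their call; these counts are smaller. Without the 2 Mb at the ends of the long arms the sharing difference of line 22 was 7.64 and just missed the threshold. With regions of a mean q-value under 0.05 only, the fold enrichment difference was −1.31 in line 16 and 0.121 in line 22, and the differences of line 22 in narrow peaks of 7.49 and in sharing of 5.63 lost their call. With regions of at least 500 bp only, in both the members and their partners, the sharing differences of 6.64 in line 16 and 6.72 in line 22 lost their call. The fold enrichment threshold of 2.5 gave 1.71 in line 22.

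The settings added after seeing the data included the other 10 chromosomes as the comparison. In line 16 that comparison gave a density ratio of 0.985 and a length difference of −0.63. It gave sharing differences of 3.57 in line 16 and −1.04 in line 22, and a fold enrichment difference of 3.51 in line 22. The calls for sharing and for a fold enrichment of at least 2 were thus lost. For narrow peaks, regions of at least 500 bp gave 9.18 in line 16, which then passed, and 6.35 in line 22, and regions under 500 bp gave 1.54 in line 16 and 6.32 in line 22. For sharing, members of at least 500 bp with all regions of the other line as partners gave 13.7 in line 16, which passed, and 9.93 in line 22, and members under 500 bp gave 6.51 in line 16, which passed, and 6.56 in line 22. These 4 values of line 22 and the 1.54 of line 16 missed the threshold.

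The density ratio of line 22 kept its call in 6 of 7 settings (1.15 to 1.45), the sharing difference of line 16 in 9 of 12 and that of line 22 in 4 of 12. Joining regions within 500 bp is not among these settings, since no regions on the arms lay that close. Moving the bounds by 1 Mb changed no call. The mean of the lines without replicate 1 or without replicate 2 ranged from 1.03 to 1.29 for density, 1.55 to 2.59 for length, 3.93 to 6.31 for narrow peaks, 7.78 to 8.97 for sharing and 1.46 to 8.04 for fold enrichment. With only 2 lines, leaving 1 out returns the value of the other by itself, so that these ranges are no further test. The densities by arm length without undetermined bases and by uniquely alignable length were not run, for lack of the MSU7.0 sequence.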
